A study of Mus musculus with 16 samples.

Results

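Cochlear hair cells (HCs) sit between fluids of different composition, and genes that let them sense and adjust to osmotic conditions were examined in RNA of inner and outer HCs (IHCs and OHCs). They comprised 8 genes, chosen by name from 49585 in the deposited table: *Tmem63a*, *Tmem63b* and *Tmem63c*, which encode the TMEM63 channels, and *Aqp1*, *Aqp3*, *Aqp4*, *Aqp5* and *Aqp11*, which encode aquaporins. Of these, 7 were detected in at least 1 of 16 libraries, as were 20986 genes of the whole table. TMEM63 proteins are cation channels of the OSCA/TMEM63 family that open on membrane stretch or hypo-osmotic swelling, and TMEM63B is known as an osmosensor that OHCs of mice need for survival. Aquaporins are tetrameric membrane pores for water. AQP3 belongs to the members that also pass glycerol, AQP4 and AQP5 are known in the cochlea from supporting cells and outer sulcus cells, AQP1 is abundant in red cells, endothelium and fibrocytes, and AQP11 is a divergent member that resides largely in intracellular membranes.

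The libraries fell into 4 labelled groups of 4: OHCs of CBA mice (CBA/J in the methods of the study) at 26 months (26m OHC), OHCs at 9 months (9m OHC), IHCs at 26 months (26m IHC) and IHCs at 9 months (9m IHC). No group carried a transgene or received a treatment, both sexes were pooled, and each sample held about 1000 cells that were picked by shape with a pipette from cochleae of 6 to 18 mice. The mapped reads recovered from the deposited RPKM (reads scaled by gene length and by mapped reads) had medians of 20461537, 20414643, 24301357 and 29898099 in 26m OHC, 9m OHC, 26m IHC and 9m IHC. Libraries 1 and 2, and libraries 3 and 4, of every group differed by no more than the sampling noise (over genes, a chi-square of 1.0001 to 1.093 on average in these 8 pairs, against 1.92 to 2.30 in the other 16), so the mean of each pair served as 1 sample and n = 2 per group. P-values thus measure only the spread between these averaged samples, which may be technical. In bulk RNA, fewer cells of a type and less RNA per cell cannot be told apart.

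The labels were checked against cell type markers, and the markers of OHCs went against them. *Slc26a5*, which encodes the OHC motor protein prestin, averaged 1.85 RPKM in libraries labelled 26m OHC, 0.172 in 9m OHC, 816 in 26m IHC and 1.07 in 9m IHC. All 9 OHC markers were detected in every group, and their summed level per library was 1228 to 1242 RPKM in 26m OHC, 127 to 132 in 9m OHC, 15544 to 15750 in 26m IHC and 84.2 to 88.5 in 9m IHC. *Ocm* alone averaged 1151, 97.0, 12918 and 32.9 RPKM in this order of groups, and each of the 9 was highest in 26m IHC. The 6 IHC markers summed to 190 to 195, 358 to 362, 58.5 to 60.4 and 1234 to 1290 RPKM in the same order. Of these, *Cacna1d* was highest in 26m IHC (8.83, 7.33, 27.4 and 5.24 RPKM). *Slc17a8* was highest in 9m OHC (42.2, 90.5, 2.04 and 44.4 RPKM), and the others were highest in 9m IHC. Groups are therefore called by their labels throughout ("labelled 26m IHC"), and no direction below is assigned to an age or a cell type beyond the label. If the labels 26m IHC and 9m OHC stood for each other, the comparisons between labelled cell types would be the comparisons of age and the reverse, so both kinds are given, and the interaction of age and cell type has the same value under either reading. Markers of other cells differed between groups as well: 7 macrophage markers summed to 985 to 1015 RPKM in 26m OHC, 0.158 to 0.413 in 9m OHC (with 6 of the 7 at 0), 50.03 to 52.9 in 26m IHC and 1.496 to 1.68 in 9m IHC, and 7 red cell markers to 17.4 to 19.9, 11.97 to 14.3, 5922 to 6151 and 402 to 407 RPKM.

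Of the 8 genes, 6 reached a mean of 0.1 RPKM, the background used here, in 26m OHC, 4 in 9m OHC, 5 in 26m IHC and 5 in 9m IHC. In GRCm38 they lie apart on 8 chromosomes: *Tmem63a* (ENSMUSG00000026519) on chromosome 1 from 180942344 to 180975112, *Tmem63b* (ENSMUSG00000036026) on 17 from 45660171 to 45686905, *Tmem63c* (ENSMUSG00000034145) on 12 from 87021340 to 87090043, *Aqp1* (ENSMUSG00000004655) on 6 from 55336432 to 55348555, *Aqp3* (ENSMUSG00000028435) on 4 from 41092722 to 41098183, *Aqp4* (ENSMUSG00000024411) on 18 from 15389394 to 15403684, *Aqp5* (ENSMUSG00000044217) on 15 from 99590849 to 99594829, and *Aqp11* (ENSMUSG00000042797) on 7 from 97724006 to 97738289. All are annotated as protein coding. Values refer to whole genes, since reads were deposited per gene.

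The upstream flanks of *Aqp11*, which had the highest level of the 8 genes in any group, and of *Tmem63a* are shown. Both genes had their highest level in libraries labelled 26m IHC, as did *Tmem63b* and *Aqp5*, whose flanks are not shown. The flanks shown come from RefSeq promoters (GRCm38.p6), as far as these lie outside the annotated gene. They are written 5′ to 3′ on the strand of the gene, with a motif match in capitals.
Aqp11 (chr7:97738290-97738497, minus strand): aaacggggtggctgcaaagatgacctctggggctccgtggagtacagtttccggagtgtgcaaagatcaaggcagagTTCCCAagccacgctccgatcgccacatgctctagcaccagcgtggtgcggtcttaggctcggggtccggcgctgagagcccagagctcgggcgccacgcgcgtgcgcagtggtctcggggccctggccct
Tmem63a (chr1:180942268-180942343, plus strand): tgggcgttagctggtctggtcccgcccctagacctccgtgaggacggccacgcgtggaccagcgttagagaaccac
The capitals in the *Aqp11* flank are the reverse complement of TGGGAA, the core of the motif of Ikaros family factors, which thus lies on the opposite strand, 173 bases before the RefSeq start. The promoters of *Tmem63b* and *Aqp1* hold the same motif, 196 and 135 bases before their starts. Among 32851 RefSeq promoters, 21.6% hold TGGGAA on either strand in the 250 bases before the start. Neither TGGAAA, the core of the tonicity-responsive element and present in 18.6% of promoters, nor TATAAA (12.4%) was found in the 250 bases of *Aqp11*, *Aqp5* or *Tmem63a*, whereas *Aqp3* has TATAAA 29 bases before its start. A promoter of *Tmem63c* also holds TATAAA, 203 bases before its start on the opposite strand and 201 bases before it on the strand of the gene. Matches of different motifs do not overlap at any place given here. The promoter of *Aqp4* is not reported here. CpG dinucleotides numbered 38 in the promoter of *Aqp5*, 31 in *Tmem63b*, 23 in *Aqp11*, 23 in *Tmem63a*, 14 in *Aqp3*, 5 in *Aqp1*, and 4 and 5 in the promoters of *Tmem63c*, against a median of 6 over all promoters (quartiles 2 and 16).

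*Tmem63b* separated the libraries labelled IHC from those labelled OHC. It had 0.714, 0.693, 0.716 and 0.754 RPKM in 26m OHC libraries, 0.873, 0.895, 0.748 and 0.866 in 9m OHC, 27.6, 27.5, 27.3 and 27.1 in 26m IHC, and 19.9, 19.0, 18.8 and 18.8 in 9m IHC. Every library labelled IHC was above every library labelled OHC, and only the 2 OHC-labelled groups overlapped. Here and below, the libraries of a group are 2 pairs of near repeats. The share of all genes whose groups separate in this way is not given here. In the tests below, 65.8% of genes at 9 months and 63.5% at 26 months were called between labelled OHCs and IHCs. The means were 0.719 ± 0.0225, 0.846 ± 0.0548, 27.4 ± 0.257 and 19.2 ± 0.455 RPKM (SD, n = 2). The gene overlaps *Mrpl14*, a mitochondrial ribosomal protein gene on the opposite strand, by 584 bases, and 6 of its 129 windows of 75 bases (4.65%) also occur in transcripts of other genes. *Mrpl14* stood at 101, 172, 70.5 and 48.0 RPKM in 26m OHC, 9m OHC, 26m IHC and 9m IHC. The antisense gene *Gm16172*, which shares 2691 bases with the region of *Tmem63b*, was at 0, 0, 0.992 and 0.282 RPKM in the same order, and so was found only in the IHC-labelled groups in which *Tmem63b* was high. Because the sources used here do not give the strand, reads of these genes cannot be told apart from those of *Tmem63b* where they overlap, and their part in its level was not tested. Of the 6 markers of both hair cell types (pan hair cell markers), *Myo7a*, *Pou4f3*, *Gfi1* and *Myo6* also were higher in both IHC-labelled groups than in either OHC-labelled group. *Calb1* and *Calb2* were not. *Myo7a* averaged 9.87, 8.52, 39.0 and 40.7 RPKM in the same order. Of the 6, 3 were called lower and 0 higher in 9m OHC against 9m IHC, and 5 lower and 1 higher in 26m OHC against 26m IHC. The part of such cells in the *Tmem63b* level was not tested.

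*Tmem63a* was found in all groups. Its 4 libraries had 7.11, 7.59, 7.52 and 7.12 RPKM in 26m OHC, 2.71, 2.38, 2.80 and 2.41 in 9m OHC, 21.2, 21.9, 20.5 and 20.6 in 26m IHC, and 4.537, 4.004, 3.962 and 4.016 in 9m IHC. No 2 groups overlapped, and both groups labelled 26 months were above both labelled 9 months. The means were 7.34 ± 0.0209, 2.57 ± 0.0420, 21.0 ± 0.679 and 4.13 ± 0.199 RPKM. *Tmem63c*, the third member, stayed under the background in every group, with 11 reads in 26m OHC, 0 in 9m OHC, 8 in 26m IHC and 32 in 9m IHC over the 4 libraries. Its 9m IHC libraries, at 0.0555 to 0.0764 RPKM, were nonetheless above those of the other groups, and the level in 9m OHC was at least 7.26-fold lower than in 9m IHC, taking 3 reads over the 4 libraries as the limit that a count of 0 allows. The 26m IHC to 9m IHC ratio was 0.308 (exact 95% interval 0.123 to 0.682). These intervals and limits cover counting error only.

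Within libraries, the make-up of the TMEM63 family differed between groups. *Tmem63b* held 8.90% ± 0.288 of the summed *Tmem63a*, *Tmem63b* and *Tmem63c* RPKM in 26m OHC, 24.8% ± 1.48 in 9m OHC, 56.5% ± 0.558 in 26m IHC and 82.0% ± 0.327 in 9m IHC (SD, n = 2). The ratio of *Tmem63b* to *Tmem63a*, both per kilobase, was 0.0982 ± 0.00335, 0.331 ± 0.0255, 1.30 ± 0.0295 and 4.65 ± 0.106. *Tmem63a* thus was the main TMEM63 transcript in libraries labelled OHC and *Tmem63b* in libraries labelled IHC, in each of the 16 libraries. Such a ratio does not depend on the scaling of a library as a whole. The summed TMEM63 level was 7.86 to 8.33 RPKM per library in 26m OHC, 3.28 to 3.58 in 9m OHC, 47.7 to 49.4 in 26m IHC and 22.9 to 24.5 in 9m IHC.

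**Figure D1:**
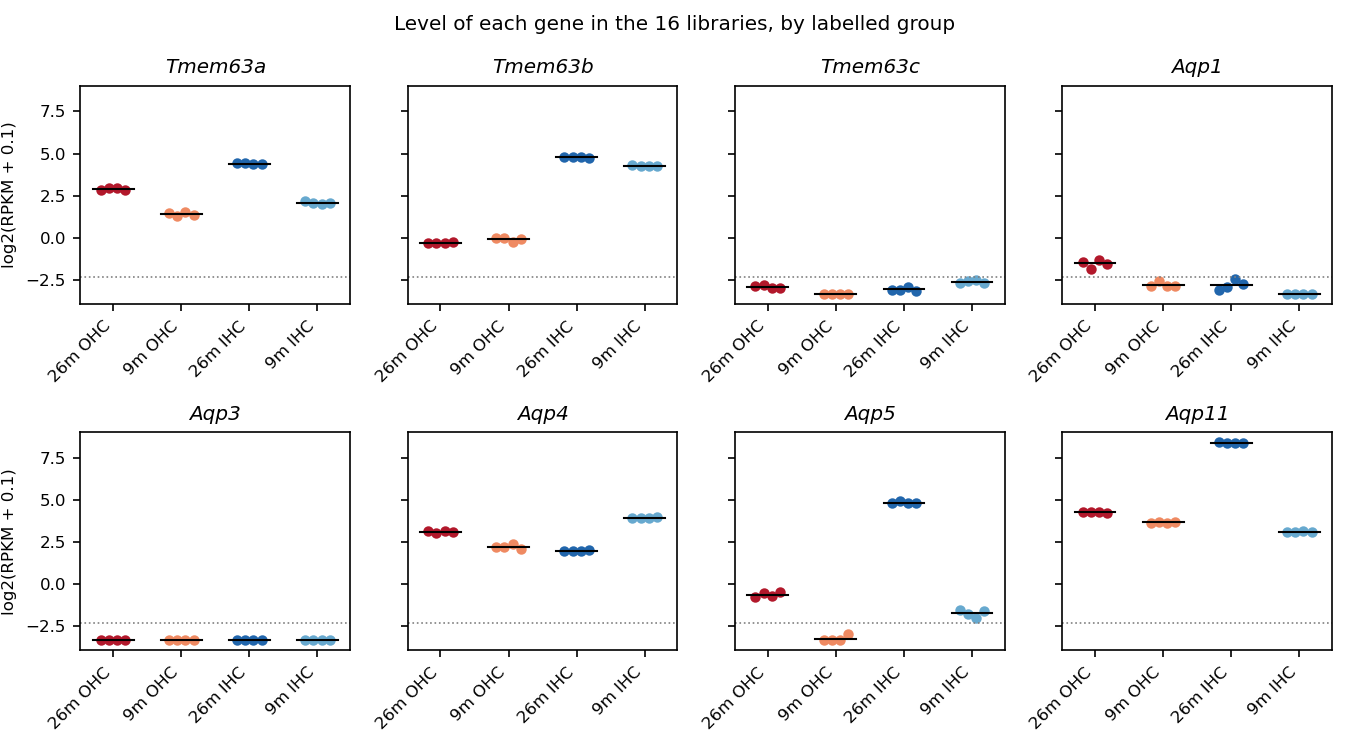
Level of each of the 8 genes, as log2(RPKM + 0.1), in the 4 libraries (points, in the order 1 to 4) of each labelled group, with the group mean as a bar and the background of 0.1 RPKM as a dotted line. *Tmem63b* is high in both IHC-labelled groups, *Aqp5* and *Aqp11* stand out in 26m IHC (means of 28.5 and 340.3 RPKM), and *Aqp3* is at 0 in all 16 libraries.

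*Aqp11* was the most abundant of the aquaporins in all groups but 9m IHC. Its libraries had 19.4, 19.3, 19.4 and 18.7 RPKM in 26m OHC, 12.4, 12.7, 12.5 and 13.1 in 9m OHC, 342.4, 339.1, 340.0 and 339.7 in 26m IHC, and 8.51, 8.64, 8.71 and 8.59 in 9m IHC. The 26m IHC libraries stood far above the rest, 9m IHC was lowest, and no groups overlapped. The means were 19.2 ± 0.195, 12.7 ± 0.185, 340.3 ± 0.674 and 8.61 ± 0.0570 RPKM, from 6627, 4342, 139261 and 4337 reads.

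*Aqp5*, an aquaporin of secretory epithelia, had the same highest group. Its values were 0.488, 0.593, 0.510 and 0.629 RPKM in 26m OHC, 27.9, 30.1, 27.7 and 28.4 in 26m IHC, and 0.253, 0.192, 0.146 and 0.228 in 9m IHC, while 3 of the 9m OHC libraries were at 0 and the other at 0.0301. Only 1 read was counted over the 9m OHC libraries, against 76, 4634 and 41 reads in 26m OHC, 26m IHC and 9m IHC. The means were 0.555 ± 0.0203, 0.00752 ± 0.0106, 28.5 ± 0.663 and 0.205 ± 0.0251 RPKM. The 3 outer sulcus root cell markers, all detected in every group, summed to 613 to 645 RPKM in 26m OHC, 302 to 318 in 9m OHC, 149 to 161 in 26m IHC and 480 to 501 in 9m IHC. Most of this sum was *Epyc* (547, 301, 150.3 and 489 RPKM). *Slc26a4* (11.1, 6.28, 3.34 and 0.630 RPKM) and *Anxa1* (70.6, 1.87, 2.44 and 0.738 RPKM) were, like *Aqp5*, called higher in 26m IHC than in 9m IHC (2 of 3 markers), whereas *Epyc* was called lower (log2 fold change -1.70). In 26m OHC against 26m IHC all 3 markers were called higher, while *Aqp5* was lower. The part of such cells was not tested.

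*Aqp4*, the water channel of glia and supporting cells, had another order. It had 8.86, 8.22, 8.79 and 8.65 RPKM in 26m OHC, 4.46, 4.49, 5.07 and 4.18 in 9m OHC, 3.76, 3.79, 3.76 and 4.05 in 26m IHC, and 15.2, 15.3, 15.4 and 15.7 in 9m IHC. Its highest group was 9m IHC, its lowest 26m IHC, and groups did not overlap, although 26m IHC and 9m OHC lay close. The means were 8.63 ± 0.127, 4.55 ± 0.110, 3.84 ± 0.0921 and 15.4 ± 0.191 RPKM. The 8 supporting cell markers, with 1 (*Prox1*) at 0 in 9m OHC and none at 0 elsewhere, summed to 427 to 431 RPKM in 26m OHC, 294 to 308 in 9m OHC, 335 to 340 in 26m IHC and 1271 to 1279 in 9m IHC. Of these, 5 markers shared their highest group with *Aqp4*, and *Gjb2* and *Gjb6* made up most of the sum, whereas *Kcnj10* was highest in 26m OHC and lowest in 9m IHC (18.2, 7.74, 9.28 and 3.84 RPKM), *Prox1* was highest in 26m OHC and *Hes1* in 9m OHC. Their part in the *Aqp4* level was not tested.

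*Aqp1* was near the background and was clearest in 26m OHC, at 0.273, 0.179, 0.305 and 0.247 RPKM, against 0.0364 to 0.0724 in 9m OHC, 0.0150 to 0.0822 in 26m IHC and 0 in all 9m IHC libraries. The reads numbered 54, 10, 11 and 0, and the libraries labelled 26m IHC and 9m OHC overlapped. Over 4 libraries the rate was 5.36 times as high in 26m OHC as in 9m OHC (exact 95% interval 2.70 to 11.8) and 5.82 times as high as in 26m IHC (3.01 to 12.3), and it was at least 26.4-fold higher than in 9m IHC, taking 3 reads over that group as its limit. The sum of the 8 fibrocyte and stria markers also was highest in 26m OHC, at 553 to 559 RPKM, against 79.2 to 81.0 in 9m OHC, 125 to 128 in 26m IHC and 69.7 to 73.0 in 9m IHC (*Kcne1* was at 0 in 26m OHC and 9m IHC, and *Pou3f4* in 9m OHC). *Kcne1*, highest in 9m OHC, and *Kcnq1*, highest in 9m IHC (0.133, 0.00290, 0.103 and 1.08 RPKM), did not follow the other 6. The 7 endothelial markers summed to 1.28 to 1.62 RPKM in 26m OHC (*Pecam1*, *Cdh5* and *Tek* at 0), 1.16 to 1.38 in 9m OHC (*Kdr* and *Cldn5* at 0), 0.162 to 0.235 in 26m IHC and 0.0194 to 0.0288 in 9m IHC (5 of 7 at 0). The 7 red cell markers went another way, with sums of 17.4 to 19.9 RPKM in 26m OHC and 5922 to 6151 in 26m IHC. Their sums were 11.97 to 14.3 RPKM in 9m OHC and 402 to 407 in 9m IHC. The part of all these cells in the *Aqp1* level was not tested.

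*Aqp3*, the aquaglyceroporin, gave 0 reads in all 16 libraries, which allows up to 0.02 RPKM in 26m OHC, 0.0201 in 9m OHC, 0.0168 in 26m IHC and 0.0137 in 9m IHC (3 reads over 4 libraries). At this depth *Aqp3* was not detectable. The other 7 aquaporin genes of the table added little. *Mip*, *Aqp6* and *Aqp12* were at 0 in every library, and *Aqp7* and *Aqp9* had a mean of at most 0.0217 RPKM in any group. *Aqp2*, the vasopressin-regulated channel of the kidney, averaged 0, 0, 0.602 and 0.00565 RPKM in 26m OHC, 9m OHC, 26m IHC and 9m IHC, and *Aqp8* averaged 0, 0, 0.494 and 0.793 RPKM. By the same limit, *Aqp2* was at least 23.4-fold lower in 26m OHC than in 26m IHC, and *Aqp8* was at least 34.1-fold lower in 9m OHC than in 9m IHC.

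Over all aquaporins, the summed level per library was 28.2 to 29.0 RPKM in 26m OHC, 16.9 to 17.6 in 9m OHC, 373 to 375 in 26m IHC and 24.6 to 25.4 in 9m IHC. *Aqp11* took 67.04% ± 0.661 of it in 26m OHC, 73.3% ± 0.194 in 9m OHC, 91.0% ± 0.110 in 26m IHC and 34.4% ± 0.157 in 9m IHC, and *Aqp4* took 30.1% ± 0.466, 26.3% ± 0.163, 1.03% ± 0.0279 and 61.6% ± 0.0667 (SD, n = 2). *Aqp4* therefore led in 9m IHC and *Aqp11* in the other groups, where the ratio of *Aqp11* to *Aqp4* was 2.23 ± 0.0577 (26m OHC), 2.80 ± 0.00391 (9m OHC) and 88.7 ± 2.22 (26m IHC), against 0.559 ± 0.00312 in 9m IHC.

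**Figure D2:**
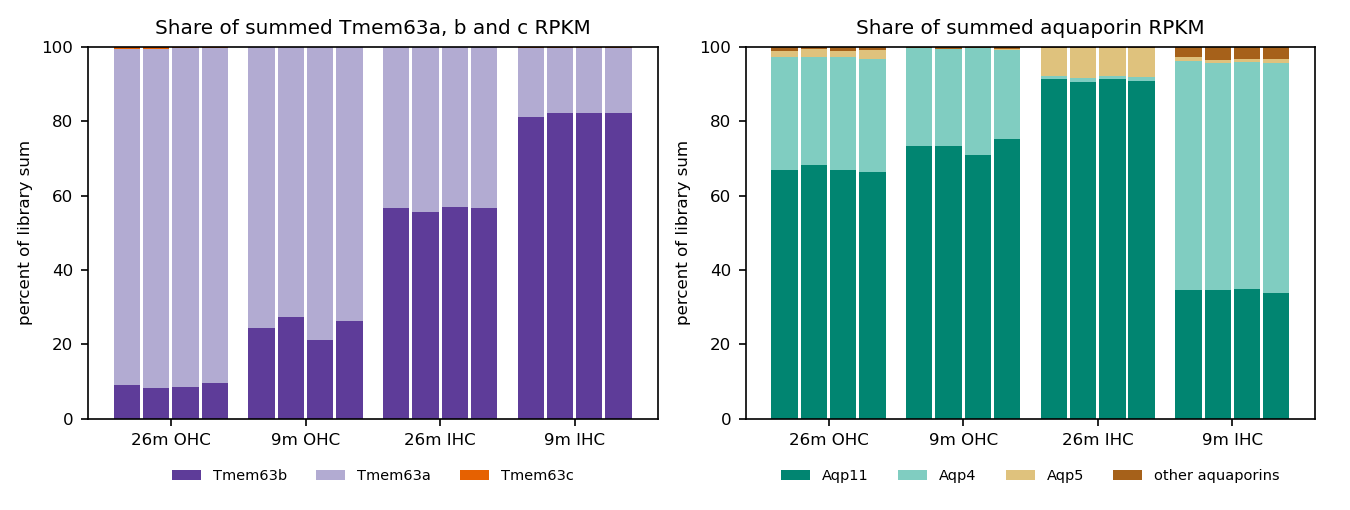
Share of each gene in the summed RPKM of *Tmem63a*, *Tmem63b* and *Tmem63c* (left) and of all aquaporins (right), in percent, with 1 bar per library and 4 libraries per labelled group. The *Tmem63b* share is lowest in 26m OHC (8.90%) and highest in 9m IHC (82.0%), and *Aqp4* exceeds *Aqp11* only in 9m IHC (61.6% against 34.4%).

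To ask how the 8 genes differ by age within the labelled cell types, libraries labelled 26 months were compared with those labelled 9 months. Calls needed an adjusted p of at most 0.1 in limma (Benjamini-Hochberg over all tested genes) and an absolute log2 fold change of 1 or above on the log2(RPKM + 0.1) scale, which understates changes of genes near 0.1 RPKM. *Tmem63c* and *Aqp3* were under the filter of 0.1 RPKM in every group and were not tested. Between 26m OHC and 9m OHC, 3 of 6 tested members rose (*Tmem63a*, *Aqp1* and *Aqp5*) and the other 3 were not called. Over all 14843 tested genes 49.6% were called, 35.6% higher and 14% lower, and the median log2 fold change of all tested genes was 0.45. *Tmem63a* was higher by 1.48 ± 0.037 on the log2 scale (SE, adjusted p = 5.95e-06), *Aqp5* by 2.61 ± 0.098 (adjusted p = 1.8e-05) and *Aqp1* by 1.26 ± 0.11 (adjusted p = 0.000328). For *Aqp5* the ratio of read rates was 75.4 with an exact 95% interval of 13.1 to 3018, wide because of the single read in 9m OHC. *Aqp4* (0.91 ± 0.037) and *Aqp11* (0.59 ± 0.028) had adjusted p of 2.3e-05 and 3.55e-05 but stayed under the fold change limit, as did *Tmem63b* (-0.21 ± 0.072, adjusted p = 0.0454). Relative to the median of all genes, *Tmem63a* was at 1.03, *Aqp5* at 2.16, *Aqp1* at 0.81, *Aqp4* at 0.46 and *Aqp11* at 0.15. *Aqp1* turned to -0.11 with quantile normalization, and its call and that of *Aqp5* were lost with a pseudocount of 1. In this comparison 6 of 9 OHC markers were higher, and 2 of 6 IHC markers were lower. Also higher were 7 of 7 macrophage markers, 6 of 8 fibrocyte and stria markers and 5 of 5 neuron markers. The part of any of these cells was not tested. Over all genes, 5288 were higher and 2079 lower with the deposited scaling, against 4297 and 3051 after median ratio scaling and 3748 and 3783 when quantile normalized.

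Between 26m IHC and 9m IHC, 3 of 5 tested members rose and 1 fell, where 32.7% of 15711 tested genes were called (14.1% higher and 18.6% lower, median log2 fold change -0.09). The differences of *Aqp5* (6.56 ± 0.071, adjusted p = 1.91e-07) and *Aqp11* (5.29 ± 0.022, adjusted p = 6.69e-08) correspond to 94.1-fold on the log scale with pseudocount and 39.1-fold. *Tmem63a* was 5.001-fold higher (2.32 ± 0.047, adjusted p = 1.05e-06), and *Aqp4* fell by 1.98 on the log2 scale (SE 0.035, adjusted p = 7.1e-07). *Tmem63b*, at 0.51 ± 0.029, was under the fold change limit with an adjusted p of 3.43e-05. The OHC markers moved with *Aqp5* and *Aqp11* here, with 9 of 9 higher in 26m IHC, and so did the red cell markers (7 of 7), the macrophage markers (7 of 7) and the eosinophil and neutrophil markers (7 of 7, which summed to 412 to 428 RPKM in 26m IHC and 0.0387 to 0.0825 in 9m IHC, with *Epx*, *Ear1*, *S100a9*, *Elane* and *Mpo* at 0 in 9m IHC). With *Aqp4*, 5 of 6 IHC markers, 5 of 8 supporting cell markers and 5 of 5 neuron markers were lower, while the IHC marker *Cacna1d* was higher. The part of such cells in these differences was not tested.

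**Figure D3:**
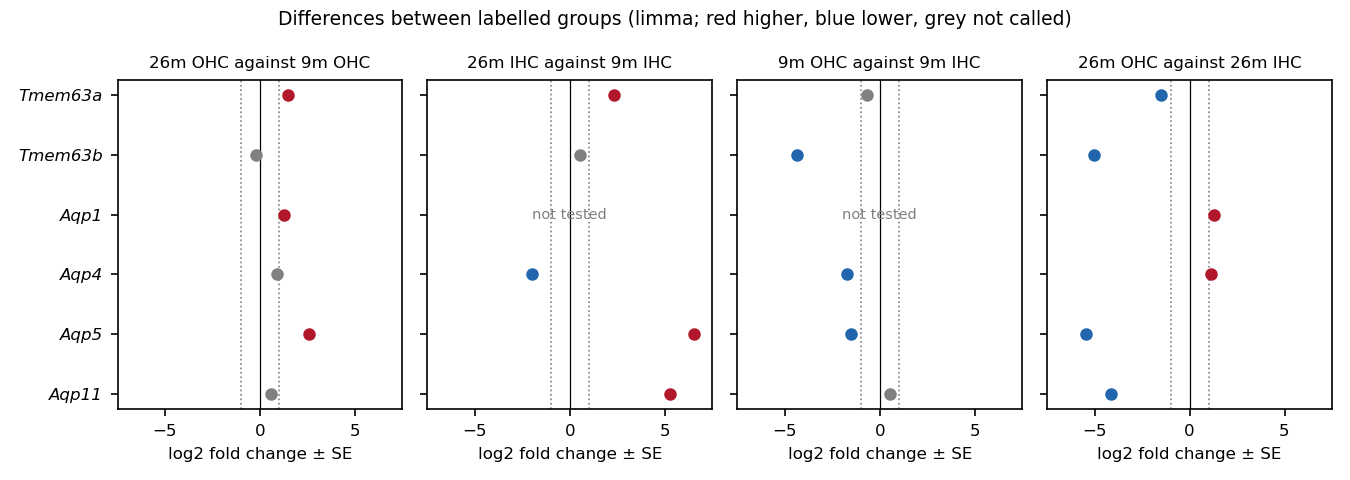
Log2 fold change (limma, on log2(RPKM + 0.1)) of the 6 genes that passed the filter, in the 4 labelled comparisons, with the SE as error bars that are often smaller than the points, and the limits of -1 and 1 dotted. Red points are called higher, blue points are called lower and grey points are not called. *Aqp5* and *Aqp11* have their largest values between 26m IHC and 9m IHC (6.56 and 5.29), and *Tmem63b* has its largest between labelled OHCs and IHCs (-4.35 and -5.07).

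The labelled cell types were compared at each age. Between 9m OHC and 9m IHC, 3 of 5 tested members fell and the other 2 were not called, where 65.8% of 15335 genes were called, 17.3% higher and 48.5% lower, and the median log2 fold change was -0.93. *Tmem63b* was lower by far, at -4.35 ± 0.056 (adjusted p = 5.75e-07), which is -3.41 relative to the median of all genes. *Aqp4* (-1.74 ± 0.034, adjusted p = 1.2e-06) and *Aqp5* (-1.503 ± 0.11, adjusted p = 0.000123) also were lower, but at -0.80 and -0.57 relative to the median, and the fold change of neither reached 1 with quantile normalization (-0.88 and -0.83). *Aqp5* rested on 1 read in 9m OHC against 41 in 9m IHC (ratio of rates 0.0359, exact 95% interval 0.000887 to 0.211). At levels this low its fold change cannot reach the limit with a pseudocount of 1. *Tmem63a* (-0.66 ± 0.052) and *Aqp11* (0.55 ± 0.030) were not called. Median ratio scaling turned *Tmem63a* to 0.04 and quantile normalization turned it to 0.12, and *Aqp11* reached 1.27 and 1.26 under these scalings and was called higher. In this comparison 2 of 9 OHC markers were higher and 2 lower, and 1 of 6 IHC markers was higher and 3 lower. Also lower were 7 of 7 red cell markers and 5 of 8 supporting cell markers. The part of any of these cells was not tested. The split over all genes was 2650 higher and 7435 lower with the deposited scaling, 4008 and 5113 after median ratio scaling, and 4430 and 4763 when quantile normalized.

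Between 26m OHC and 26m IHC all 6 tested members were called, 2 higher and 4 lower, where 63.5% of 16043 genes were called (29% higher and 34.4% lower, median log2 fold change -0.20). *Aqp5* fell by 5.45 on the log2 scale (SE 0.046, adjusted p = 3e-07), *Tmem63b* by 5.07 (SE 0.042, adjusted p = 2.91e-07), *Aqp11* by 4.14 (SE 0.022, adjusted p = 2.38e-07) and *Tmem63a* by 1.51 (SE 0.035, adjusted p = 1.84e-06). *Aqp1* (1.30 ± 0.18, adjusted p = 0.00135) and *Aqp4* (1.15 ± 0.039, adjusted p = 5.9e-06) were higher, and lost the call with a pseudocount of 1 (0.26 and 0.99). Both TMEM63 genes, *Aqp11* and *Aqp5* thus moved in the opposite direction to *Aqp4* and *Aqp1*. In the same comparison 9 of 9 OHC markers, 7 of 7 red cell markers and 7 of 7 eosinophil and neutrophil markers were lower. Of the 6 pan hair cell markers 5 were lower and 1 higher, while 5 of 6 IHC markers were higher and 1 lower. Also higher were 6 of 7 macrophage markers, 6 of 8 fibrocyte and stria markers (with 1 lower) and 5 of 5 neuron markers. The part of such cells was not tested.

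The age difference of the labelled OHCs, less that of the labelled IHCs, was tested over all groups. All 6 tested members passed at an adjusted p of 0.1 or less, 2 higher and 4 lower, but so did 90.4% of 17056 genes (57.5% higher and 33% lower). The interaction was 2.89 ± 0.048 for *Aqp4* (adjusted p = 1.1e-08), -3.95 ± 0.13 for *Aqp5* (adjusted p = 1.68e-07), -4.69 ± 0.030 for *Aqp11* (adjusted p = 9.88e-10), -0.85 ± 0.060 for *Tmem63a* (adjusted p = 8.54e-06) and -0.72 ± 0.070 for *Tmem63b* (adjusted p = 4.83e-05) on the log2 scale. *Aqp4* was higher at 26 months in the labelled OHCs and lower in the labelled IHCs, although the difference in the labelled OHCs was under the fold change limit. *Aqp1*, at 0.75 ± 0.22 (adjusted p = 0.0135), turned to -0.09 with a pseudocount of 0.01 and to -0.37 with quantile normalization.

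The remaining pairs of groups, added after seeing the data, complete the order of levels. Between 26m OHC and 9m IHC, 3 of 6 tested members were higher (*Aqp1*, *Aqp5* and *Aqp11*) and 1 lower (*Tmem63b*), where 61.9% of genes were called (26.3% higher and 35.6% lower). Between 26m IHC and 9m OHC, 4 of 5 were higher and the other, *Aqp4*, was not called, where 67.6% were called (46.2% higher and 21.4% lower). *Aqp4*, at 3.84 RPKM in 26m IHC and 4.55 in 9m OHC, had a log2 fold change of -0.24 ± 0.043 (adjusted p = 0.00443). Neighbours in the order whose libraries overlapped were 26m OHC and 9m OHC for *Tmem63b*, 26m IHC and 9m OHC for *Aqp1*, and 26m OHC and 26m IHC for *Tmem63c*.

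The genes most like each member were sought among 12297 protein-coding genes by Pearson's r of log2(RPKM + 0.1) over the 8 averaged samples, which share 4 groups, so that r mostly reflects the order of 4 group levels and is given as a description. *Aqp11* was closest to *Sec16b* (r = 0.9998), *Tpd52l2* (0.9994) and *Kcnj13* (0.998), an inwardly rectifying potassium channel gene at 5.90, 2.62, 449.9 and 2.09 RPKM in 26m OHC, 9m OHC, 26m IHC and 9m IHC. *Aqp5* was closest to *Olfm1* (0.9994), *Sh2b2* (0.9993) and *Six2* (0.998). *Tmem63a* was closest to *9530077C05Rik* (0.9991), *Slc27a2* (0.998) and *1700025G04Rik* (0.997), and *Tmem63b* to *Txndc11* (0.9997), *Zfr* (0.9996) and *Taz* (0.9996). *Aqp4* was closest to *Nxt2* (0.9988), *Sgk1* (0.9988), a serum and glucocorticoid regulated kinase gene at 36.3, 20.1, 16.5 and 60.4 RPKM, and *Rhbdl3* (0.998).

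Other genes of cell volume and osmotic control were read as 4 lists with 33 genes in the table. In 26m OHC against 9m OHC, 11 of 28 tested rose and 2 fell (median log2 fold change 0.73, against 0.45 over all genes, of which 35.6% were called higher and 14% lower). In 26m IHC against 9m IHC, 4 of 26 rose and 7 fell (median -0.33, against -0.09, with 14.1% and 18.6% of all genes called higher and lower). In 9m OHC against 9m IHC, 4 of 27 rose and 13 fell (median -0.71, against -0.93, with 17.3% and 48.5%). In 26m OHC against 26m IHC, 10 of 28 rose and 6 fell (median 0.54, against -0.20, with 29% and 34.4%). Markers of macrophages and other cells also differed between these groups, as given above. The part of such cells in the levels of the listed genes, here and below, was not tested.

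Among the LRRC8 subunits of the volume-regulated anion channel, *Lrrc8a*, the subunit that every such channel needs, was at 94.4, 93.0, 3.21 and 2.48 RPKM in 26m OHC, 9m OHC, 26m IHC and 9m IHC. It was thus high in both groups labelled OHC, the reverse of *Tmem63b*, with log2 fold changes of 5.17 (adjusted p = 5.06e-07) for 9m OHC against 9m IHC and 4.84 (adjusted p = 2.7e-07) for 26m OHC against 26m IHC. *Lrrc8b* (8.01, 3.06, 35.1 and 7.11 RPKM) and *Lrrc8c* (2.12, 1.67, 11.9 and 5.08 RPKM) were highest in 26m IHC. Both rose in 26m IHC against 9m IHC, by 2.29 and 1.22 on the log2 scale (adjusted p = 2.51e-07 and 2.36e-06).

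Of the other osmosensitive or stretch-activated channels, *Trpv4*, which encodes a cation channel opened by swelling, was at 0.0534, 1.81, 5.21 and 7.201 RPKM. It fell by 3.64 on the log2 scale in 26m OHC against 9m OHC (adjusted p = 5.95e-06) and, like *Tmem63b*, was higher in libraries labelled IHC. *Ttyh2*, a tweety family gene, went the other way, with 6.82, 0.694, 0.0110 and 0.00909 RPKM, and *Trpv2* was at 1.12 RPKM in 26m OHC and at most 0.0567 in the other groups. By the mean over the 4 groups, though not within each group, *Trpm7*, *Ano6* and *Ttyh3* were the most abundant of this list. They had 5.24, 3.57, 6.19 and 5.79 RPKM, 8.04, 4.49, 1.25 and 4.23 RPKM, and 2.19, 1.86, 3.99 and 7.58 RPKM in the same order of groups.

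The cation-chloride cotransporter genes were led by *Slc12a7*, which encodes KCC4, a potassium-chloride exporter of the cochlea, with 92.4, 44.9, 173 and 288 RPKM. It rose in 26m OHC against 9m OHC (1.04, adjusted p = 5.93e-06) and fell by 2.68 in 9m OHC against 9m IHC (adjusted p = 5.25e-07). Relative to the median of all genes these differences were 0.59 and -1.75. *Stk39*, the kinase SPAK that regulates these transporters, was at 34.8, 27.4, 108 and 71.4 RPKM. *Slc12a2*, which encodes the sodium-potassium-chloride cotransporter NKCC1, was at 8.19, 3.15, 5.50 and 6.77 RPKM and rose in 26m OHC against 9m OHC (1.35, adjusted p = 1.1e-05, and 0.91 relative to the median). The largest called changes of this list were in *Slc12a5* (0.0379, 1.77, 0.208 and 0.756 RPKM), *Slc12a4* (1.90, 1.91, 0.136 and 0.557 RPKM) and *Wnk4* (4.53, 4.97, 1.09 and 8.21 RPKM).

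Among genes of the osmolyte response, *Akr1b3*, the aldose reductase that makes sorbitol, was at 48.7, 30.4, 113 and 46.8 RPKM and rose in 26m IHC against 9m IHC (1.27, adjusted p = 8.88e-07). *Slc6a6*, the taurine transporter gene, was at 12.2, 1.89, 19.9 and 9.74 RPKM and rose in 26m OHC against 9m OHC (2.63, adjusted p = 2.65e-06). *Slc5a3*, the myo-inositol transporter gene, was lowest in 26m IHC, with 8.16, 7.54, 0.848 and 7.14 RPKM. *Nfat5*, which encodes the transcription factor of the tonicity response, was at 4.97, 2.58, 1.76 and 2.54 RPKM and *Slc38a2* at 37.1, 27.5, 43.3 and 25.1 RPKM.

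**Figure D4:**
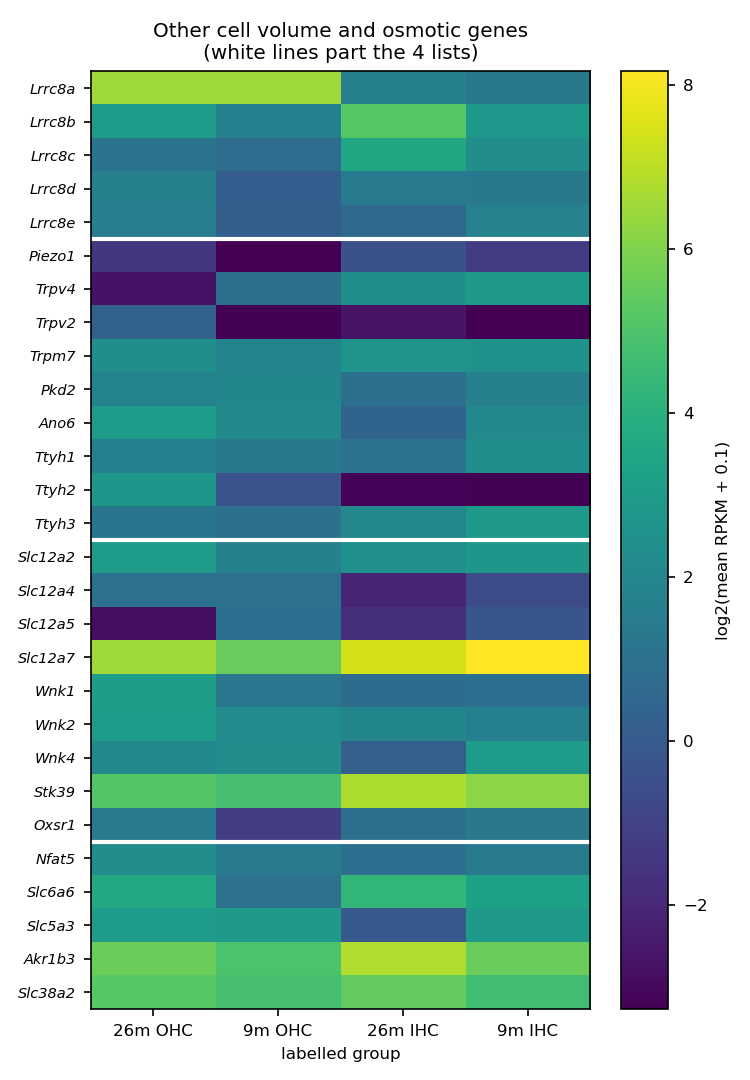
Mean level, as log2(RPKM + 0.1) in colour, of the 28 other cell volume and osmotic genes whose mean reached 0.1 RPKM in some group, in the 4 labelled groups, with white lines between the 4 lists. *Lrrc8a* is bright in both OHC-labelled groups (94.4 and 93.0 RPKM) and *Slc12a7* in all groups (44.9 to 288 RPKM).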

How the data were processed

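The authors prepared cDNA from about 1000 cells per sample with a SMARTer low-input kit, made Nextera libraries, sequenced them with Illumina chemistry and mapped the reads to GRCm38 with CLC Genomics Workbench. They deposited RPKM per gene, and the version, counting rules and strand are not given in the sources used here. Mapped reads were recovered from RPKM steps and exon lengths of GENCODE M21, which gave whole numbers (to 0.001 read) for 15369 of the 20986 detected genes (73.2%). *Aqp4*, *Aqp5* and *Aqp11* gave whole reads at lengths of 5082, 1667 and 4202 bases, not at their union of exons. Differences were tested with limma 3.58.1 (trend) in R 4.3.3 on log2(RPKM + 0.1), for genes whose mean reached 0.1 RPKM in either group. The test was checked on simulated libraries. The text names all 8 members, all other aquaporins, per list of volume genes the 3 most abundant (by the mean over groups) and the 3 with the largest called change, and the 3 genes most correlated with a member. The members, the lists and the averaging of libraries were chosen with earlier results of these data known. Alternatives covered the pseudocount, filter, scaling, thresholds, replicates, block and model. Promoters are from RefSeq (GRCm38.p6). A gene of the volume lists is not reported here, and the counts of these lists leave it out.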

Additional observations from a re-analysis of the deposited data

Results flagged for a closer look

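In 6 cases 1 of the 4 libraries of a group lay far from the other 3, by the gap to its nearest neighbour as a share of the range of the group (Dixon's ratio, above its critical value at 4 samples). This share was 0.905 for *Tmem63a* and 0.836 for *Tmem63b* in 9m IHC, where library 1 was highest for both (4.54 and 19.9 RPKM). It was 0.937 for *Aqp1* in 9m OHC, where library 2 was at 0.0724 RPKM with 4 reads, and 1 for *Aqp5* in 9m OHC, which had a single read in library 4. It was 0.916 for *Aqp4* in 26m IHC (library 4, 4.05 RPKM) and 0.873 for *Aqp11* in 26m OHC (library 4, 18.7 RPKM). Chance alone passes this value in about 1 of 20 groups of independent samples, a rate that need not hold for these libraries, which are 2 pairs of near repeats. The share over all genes is not given here, so the 6 cases cannot be called many or few.

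The difference between 26 and 9 months differed between the labelled cell types for all 6 tested members (limma, adjusted p of 0.1 or less), as for 90.4% of tested genes. As OHC minus IHC on the log2 scale it was -0.85 for *Tmem63a*, -0.72 for *Tmem63b*, 0.75 for *Aqp1*, 2.89 for *Aqp4*, -3.95 for *Aqp5* and -4.69 for *Aqp11*.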

How the results depend on the processing

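The number of members called in 26m OHC against 9m OHC, 3 as reported, was 1 with a pseudocount of 1 RPKM, 1 with a filter at 1 RPKM and 6 without a minimum fold change, and in 9m OHC against 9m IHC it was 5 without that minimum in place of 3. Directions turned for *Aqp1* in 26m OHC against 9m OHC (-0.11, quantile normalization), for *Tmem63a* in 9m OHC against 9m IHC (0.044 after median ratio scaling and 0.12 when quantile normalized) and for the interaction of *Aqp1* (-0.089 with a pseudocount of 0.01 and -0.37 with quantile normalization). *Tmem63b* reached -1.22 in 26m OHC against 9m OHC with quantile normalization and was then called. The genes called over the whole table fell with a pseudocount of 1 to 4197 from 7367 (26m OHC against 9m OHC), 2286 from 5138 (26m IHC against 9m IHC), 6302 from 10085 (9m OHC against 9m IHC) and 6410 from 10185 (26m OHC against 26m IHC), were 3096 for 26m IHC against 9m IHC with the filter at 1 RPKM, and numbered 13697 and 13601 for the age comparisons without a minimum fold change. In the pairs added after seeing the data, 26m OHC against 9m IHC had 6124 genes with a pseudocount of 1, against 9831, and 15122 without a minimum, and 26m IHC against 9m OHC had 6477, against 10486. The causes were not tested, apart from the fewer genes that a filter leaves. Leaving out each averaged sample in turn, which leaves 1 sample in that group and takes its spread to be like that of the other group or groups in the fit, gave 3 members in 26m OHC against 9m OHC and in 9m OHC against 9m IHC, 4 in 26m IHC against 9m IHC and 6 in 26m OHC against 26m IHC and in the interaction. Taking the replicate number as a block changed no count of members called (3, 4, 3, 6 and 6) and gave 7382, 5150, 10096 and 10197 genes called. Same-numbered averaged samples deviated together (r = 0.167 to 0.351 across 7771 genes). The labels do not say what such samples share beyond the number, and this was not tested. Depth limited *Tmem63c*, *Aqp1*, *Aqp3* and *Aqp5* in 9m OHC, where at most 54 reads were counted in a group for the first 3.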
